A study of Oryctolagus cuniculus with 6 samples.

Results

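Of the 16367 protein-coding genes in the deposited rabbit (Oryctolagus cuniculus) table, 82 carry the KEGG pathway entry for the lysosome, and 68 of them are described here. The 14 left out are the 7 whose symbol begins with ATP6V, subunits of the proton pump, and CTSK, CTSB, CTSE, CTSA, LGMN, CD68 and SLC11A1. The 68 comprise 31 hydrolases of the lysosomal lumen with their helper proteins, and 14 membrane proteins. The rest are 5 enzymes and receptors of the mannose 6-phosphate and sortilin route, and 18 subunits of sorting adaptors and of the clathrin coat. Counted among the 31 is HGSNAT, which is an acetyltransferase of the lysosomal membrane and not a luminal hydrolase. RNA came from 3 samples titled test and 3 titled control, and the question asked of them is which lysosomal genes differed between these groups. The sample labels give subcutaneous tissue for both groups, whereas the series title speaks of perichondral tissue, the connective tissue sheath of cartilage. What the test samples received, the strain, age and sex of the rabbits, and whether each sample was a separate animal are not stated, so the p-values measure only the spread between these samples, which may be technical.

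Lysosomes are acid compartments in which cells break down proteins, glycans, lipids and nucleic acids taken up from outside or delivered by autophagy. Their soluble hydrolases are made in the endoplasmic reticulum, receive a mannose 6-phosphate tag in the Golgi, and are carried to endosomes by receptors that adaptor complexes and clathrin load into vesicles. Membrane proteins such as LAMP1 form the boundary of the compartment and export the products of digestion. Macrophages and the multinucleate cells they form are rich in lysosomes, and fibroblasts use them in the turnover of matrix. Gene roles below are as known from human and mouse.

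Total counts were 17820537, 20348301 and 21199562 in test replicates 1 to 3 and 22377952, 23105606 and 21923246 in control replicates 1 to 3, and the 68 genes took from 0.876% to 0.890% of the counts in test libraries and from 0.777% to 0.849% in control libraries. The 13 mitochondrially encoded genes took from 6.97% to 7.78% in test libraries and from 10.1% to 13.3% in control libraries. Markers of several cell types moved with the groups as well. Of 15 tested macrophage markers 3 rose and 1 fell, with a median log2 fold change of 0.23. Their summed level was from 3152 to 3497 CPM (counts scaled by edgeR to the normalized size of each library) in test libraries and from 3625 to 3766 CPM in control libraries, and without the scavenger receptor CD163, the 1 that fell, from 2507 to 2788 CPM in test libraries and from 2217 to 2633 CPM in control libraries. All 5 tested markers of giant cells and osteoclasts rose (MMP9, GPNMB, CHI3L1, CHIT1 and ATP6V0D2). OCSTAMP, with 16 counts in the test group and 5 in the control group, and CALCR, with 1 and 0, were too low to test. DCSTAMP, TNFRSF11A and TREM2 were not found by symbol. The sum of the 7 measured genes, 17570 to 21393 CPM in test libraries and 5606 to 10593 CPM in control libraries, was mostly CHI3L1, which cartilage cells also make, and without it the sums were 597 to 1149 CPM in test libraries and 157 to 182 CPM in control libraries. Of 6 tested neutrophil markers 4 rose (S100A8, S100A9, S100A12 and LCN2) and 0 fell. Their list summed to 420.2 to 474 CPM in test libraries and 73.8 to 139 CPM in control libraries. Without S100A8 the sums were 193 to 224 CPM in test libraries and 39.5 to 65.0 CPM in control libraries. CSF3R and CXCR2 were not called (log2 fold changes 0.82 and -0.47, edgeR adjusted p = 0.143 and 0.805). MPO, with 10 counts in the test group and 0 in the control group, was too low to test. ELANE and FCN1 were not found by symbol. All 8 skeletal muscle markers rose (62.8 to 81.0 CPM in test libraries and 4.87 to 8.62 CPM in control libraries). Of 8 fibroblast markers 1 rose and 6 fell, with sums of 17517 to 20673 CPM in test libraries and 29328 to 41753 CPM in control libraries. Of 8 B and plasma cell markers 0 rose and 4 fell (295 to 420 CPM in test libraries and 689 to 1474 CPM in control libraries). Without JCHAIN the B and plasma cell sums were 185 to 197 CPM in test libraries and 231 to 296 CPM in control libraries. None of the 8 cartilage markers and none of the 4 T and NK cell markers was called, and 1 of 4 mast cell and 1 of 7 endothelial markers fell. Of 10 listed T and NK cell markers 6 were not found by symbol (CD3D, CD3E, CD3G, CD4, CD8A and GZMA). In the label's subcutaneous tissue the adipocyte marker LEP had 0 counts in all 6 libraries. ADIPOQ fell to 32.6 ± 4.59 CPM in test libraries, against 103 ± 38.3 CPM in control libraries (mean ± SD, n = 3 each here and below, edgeR adjusted p = 0.0038). LIPE, the other adipocyte marker tested, went the other way without a call (log2 fold change 0.65, edgeR adjusted p = 0.342), with every test library above every control library. CIDEC had 2 counts in the test group and 0 in the control group, and FABP4 and PLIN1 were not found by symbol. None of the macrophage, giant cell or fibroblast markers in the table was at 0 in all libraries, although CALCR had only 1 count. The part of these shifts in the results below was not tested, and in bulk tissue fewer cells of a type and less RNA per cell cannot be told apart.

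Lysosomal genes were more often higher than lower in test tissue. Of the 68, all of which had enough counts to be tested, 14 rose and 0 fell at an adjusted p under 0.05 (edgeR quasi-likelihood test, two-sided, adjusted by the Benjamini-Hochberg method over 12740 genes). Among all genes tested 6.84% rose and 6.15% fell, against 20.6% of the lysosomal genes that rose. The rises were modest, from 1.34-fold for NPC2 to 2.28-fold for GLB1, and only GLB1 and ARSA reached 2-fold. The genes that rose included the glycosidases GLB1 and GUSB, the sulfatase ARSA, the lipid-handling proteins PSAP and NPC2, the protease CTSF, the nuclease DNASE2, the membrane proteins NPC1, MCOLN1 and LAMP1, the tagging enzyme NAGPA and the clathrin light chain CLTB. The median log2 fold change was 0.17 over the 68 genes and -0.0038 over all genes tested. In 26 of the 68 every test library was above every control library and in 6 every test library was below, while among all genes tested these shares were 18.4% and 16.6%. At an unadjusted p under 0.05, edgeR had 21 members higher and 5 lower (SORT1, SLC17A5, CLTC, AP3M1 and AP1G1). The share of all genes at this threshold is not given here, so these counts have no background to be read against. Although 0 members fell by edgeR at the adjusted threshold, the DESeq2 Wald test called 1 of these 5 lower (AP1G1), and limma-voom called 0. Scaling by library size alone left 9 genes higher and 2 lower (AP1G1 and AP3M1), and over all genes it gave 614 higher and 877 lower calls in place of 872 and 783.

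**Figure D1:**
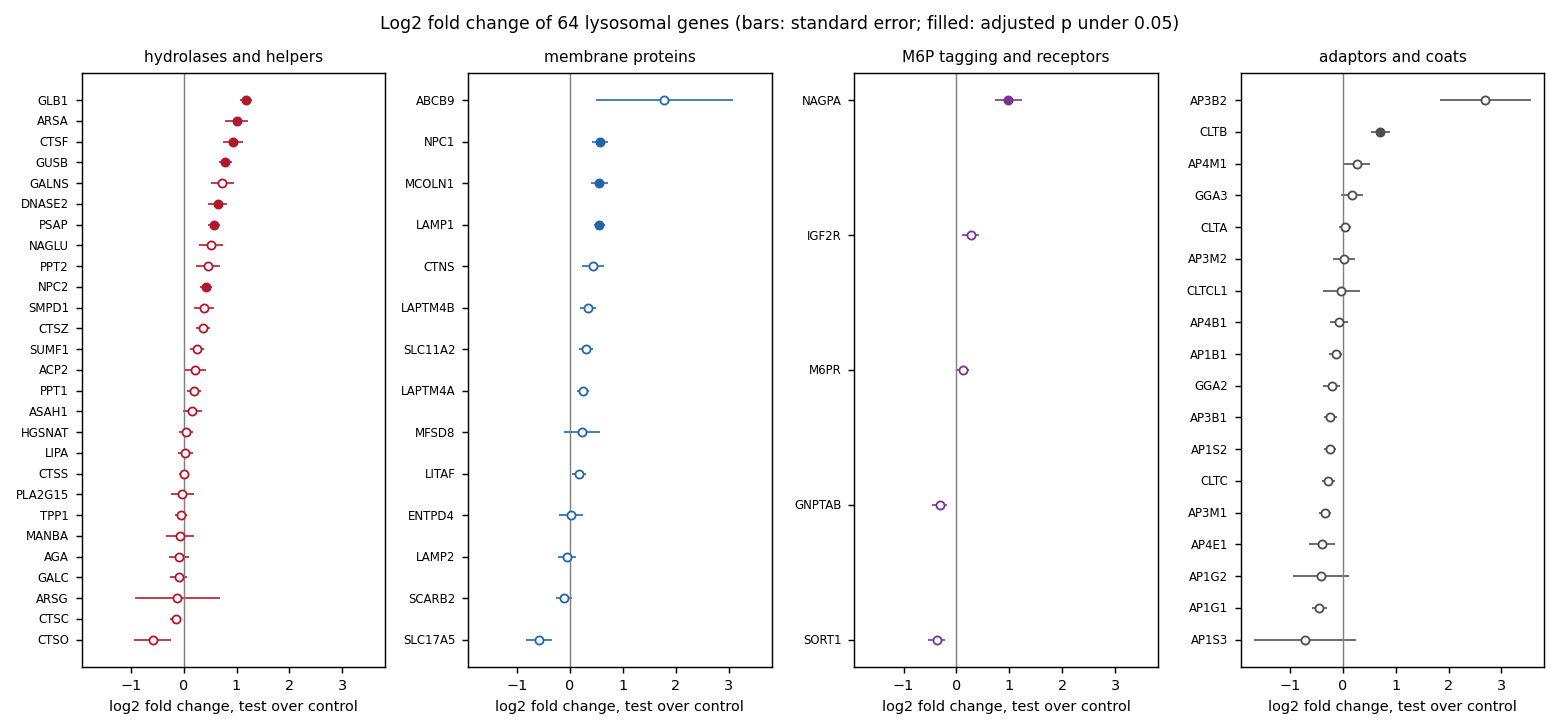
Log2 fold change, test over control, of 64 of the 68 lysosomal genes (horizontal axis), with genes down the page in 4 role classes. Points are edgeR estimates, bars their standard errors and filled points genes with an adjusted p under 0.05. The 12 filled points all lie to the right of 0, and 12 of the 18 adaptor and coat genes lie to the left.

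The count of 14 depended on single libraries. Leaving out control replicate 1 gave 17 and control replicate 2 gave 15, whereas 7 were left when control replicate 3 was omitted, 6 when test replicate 1 was, and 2 when either test replicate 2 or test replicate 3 was. Over all genes 1655 were called with every library, and 446 to 710 when any of these last 4 was omitted. Without control replicate 1 and control replicate 2 they were 2163 and 1925. The share of all genes tested that rose, 6.84% with every library, was 9.07% and 7.79% in these 2 fits. It was 3.03% without control replicate 3, and 2.67%, 2.05% and 1.87% without test replicates 1, 2 and 3. GLB1 and GUSB kept their calls in each of these 6 fits and in every other alternative tried. Without test replicate 2 or test replicate 3 the other 12 calls ended, with edgeR adjusted p from 0.0613 (LAMP1) to 0.164 (MCOLN1) and from 0.0573 (LAMP1) to 0.133 (CLTB). The log2 fold changes of these 12 were 0.864 (DNASE2) to 1.10 (CLTB) times those with all libraries when test replicate 2 was omitted, and 0.842 (CLTB) to 1.15 (NAGPA) times when test replicate 3 was. Without control replicate 3 those of NPC2, DNASE2, ARSA, NAGPA, NPC1, MCOLN1 and CLTB ended (edgeR adjusted p from 0.0584 to 0.134), omitting test replicate 1 those of 8 genes, among them NPC2, DNASE2, NAGPA, NPC1, MCOLN1 and CLTB (0.0776 to 0.142), and omitting control replicate 2 those of NAGPA and MCOLN1 (0.0555 and 0.0655). The direction of all 14 was the same in every alternative.

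Gene span moved with the fold changes too. Genomic spans were taken from RefSeq gene records of the rabbit assembly mOryCun1.1, which is not known to be the build behind the counts, and 65 of the 68 genes had one. Over 8883 tested genes with a span, a smooth trend put the test libraries 0.32 above the control libraries on the log2 scale at a span of 6.06 kb and 0.17 below them at 187 kb (a difference of -0.17). The 14 genes that rose had a median span of 10.4 kb, the genes not called had 40.2 kb, and all genes tested had 36.2 kb. After removal of each library's trend, 6 of the 14 were still called: GLB1, GUSB, PSAP, NPC1, LAMP1 and CLTB. The other 8 calls ended, among them those of ARSA, NAGPA, MCOLN1, CTSF, NPC2 and DNASE2 (edgeR adjusted p from 0.0524 to 0.454). The log2 fold changes after this correction were 0.69 for NAGPA, 0.37 for MCOLN1, 0.59 for CTSF, 0.19 for NPC2 and 0.18 for DNASE2, in place of 0.98, 0.55, 0.94, 0.42 and 0.65, and ARSA likewise had a smaller value (0.61). GLB1, GUSB and NPC1 are among the longer of the 14, and their corrected log2 fold changes were 1.35, 0.90 and 0.67 in place of 1.19, 0.79 and 0.57.

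**Figure D2:**
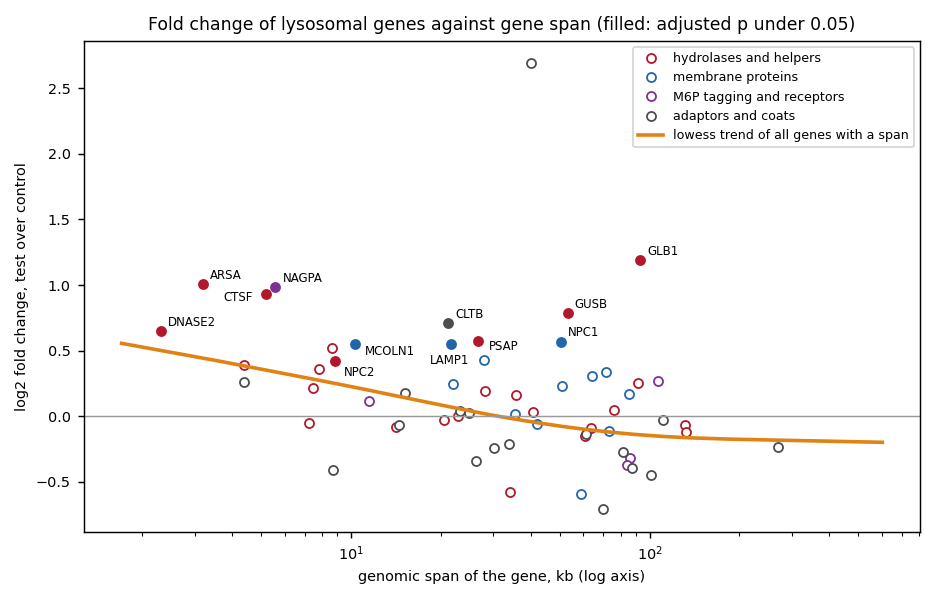
Log2 fold change, test over control (vertical axis), against genomic span in kb (horizontal log axis) for 61 of the 65 lysosomal genes with a span, coloured by role class. Filled points are genes with an adjusted p under 0.05, and the line is the trend of all genes with a span. ARSA, DNASE2, CTSF and NAGPA lie at the short end, where the line is above 0, and GLB1, GUSB and NPC1 at longer spans, where it is below 0.

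Counts of genes that rose or fell in each class are to be read beside the shares of all genes tested, 6.84% and 6.15%. Among 9 glycosidases, which remove sugars from glycolipids, glycoproteins and matrix glycans, 4 rose (44.4%) and 0 fell (9 of 9 tested, 1.19 to -0.09 in log2 fold change). GLB1 (ENSOCUG00000005824), the beta-galactosidase that trims GM1 ganglioside and keratan sulfate, had 264, 313 and 307 CPM in test replicates 1 to 3, against 133, 128 and 127 CPM in control replicates 1 to 3. All test libraries lay far above the control libraries, which were within a few CPM of each other. GLB1 rose 2.28-fold (log2 fold change 1.19 ± 0.11 SE, edgeR adjusted p = 0.000394). GUSB (ENSOCUG00000004119), the beta-glucuronidase of heparan, dermatan and chondroitin sulfate breakdown, had 98.3, 120.1 and 106 CPM in test libraries and 61.4, 61.2 and 65.3 CPM in control libraries. The 3 control libraries lay within a few CPM of each other, below every test library, and GUSB rose 1.72-fold (log2 fold change 0.79 ± 0.12, edgeR adjusted p = 0.00375).

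NAGLU, which acts on heparan sulfate, averaged 22.5 ± 4.34 CPM in test libraries and 15.7 ± 3.95 CPM in control libraries (log2 fold change 0.52 ± 0.23, edgeR adjusted p = 0.162), and its groups overlapped. The glycoprotein-degrading enzymes MANBA and AGA and the galactosylceramidase GALC had log2 fold changes of -0.07, -0.08 and -0.09, each with overlapping groups.

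**Figure D3:**
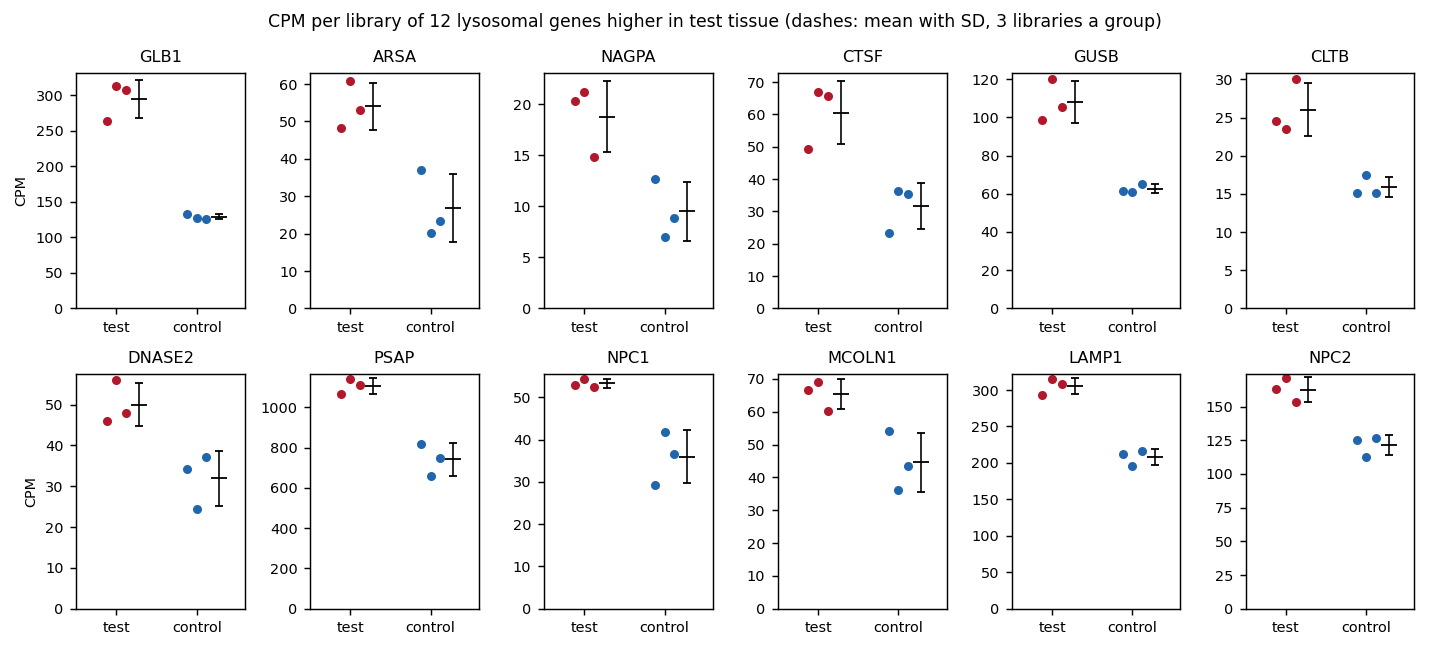
CPM per library (vertical axes from 0) of 12 of the 14 lysosomal genes that rose, with test libraries left of control libraries in each panel. Dashes with bars are the mean and SD of 3 libraries. No panel shows an overlap of the groups, and GLB1, with the largest fold of the 12, has 264 to 313 CPM in test libraries and 127 to 133 CPM in control libraries.

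Of the 5 sulfatase genes, including SUMF1, which activates sulfatases in the endoplasmic reticulum, 1 rose and 0 fell. ARSA (ENSOCUG00000008355), which removes sulfate from the myelin and kidney lipid sulfatide, had 48.3, 60.8 and 53.0 CPM in test libraries and 37.1, 20.2 and 23.3 CPM in control libraries. Control replicate 1 was the nearest to the test libraries, and ARSA rose 2.01-fold (SE 0.22 on the log2 scale, edgeR adjusted p = 0.0171), or 0.61 on the log2 scale and no longer called after the span correction. GALNS, which acts on keratan sulfate and chondroitin 6-sulfate, averaged 14.9 ± 1.1 CPM in test libraries and 8.97 ± 1.74 CPM in control libraries, and missed the threshold (log2 fold change 0.73 ± 0.22, edgeR adjusted p = 0.0553). SUMF1 did not pass the test (log2 fold change 0.26 ± 0.13, edgeR adjusted p = 0.228). ARSG had 90 counts in the test group and 114 in the control group, too few for more than a wide estimate (log2 fold change -0.12 ± 0.80).

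Lipid breakdown showed rises in the sphingolipid and cholesterol helpers, while the lipases and ceramidase did not pass the test. PSAP (ENSOCUG00000016261), prosaposin, is cut into the saposins that present sphingolipids to their hydrolases. It had 1067, 1142 and 1110 CPM in test libraries and 816, 657 and 751 CPM in control libraries, with every test library above every control library. It rose 1.49-fold (log2 fold change 0.58 ± 0.11, edgeR adjusted p = 0.0118). NPC2 (ENSOCUG00000014067), the soluble protein that hands cholesterol to NPC1, averaged 163 ± 9.07 CPM in test libraries and 122 ± 7.58 CPM in control libraries, and rose 1.34-fold (edgeR adjusted p = 0.0347), a call that the span correction ended (log2 fold change 0.19). Of the 6 lysosomal genes that the table also assigns to sphingolipid metabolism, 3 rose, among them GLB1 and ARSA, and 0 fell, with a median log2 fold change of 0.46. Those not called were GALC, SMPD1 (the acid sphingomyelinase) and ASAH1, and for SMPD1 the log2 value was 0.39 ± 0.19 (edgeR adjusted p = 0.198). ASAH1 (ENSOCUG00000004169), the acid ceramidase, had 239, 239 and 235 CPM in test libraries and 148, 248 and 240.1 CPM in control libraries. Control replicate 1 alone was low, and without it the log2 fold change was -0.03 in place of 0.17. LIPA, the acid lipase of cholesteryl esters, averaged 74.1 ± 7.48 CPM in test libraries and 72.3 ± 7.92 CPM in control libraries, and the phospholipase PLA2G15 12.2 ± 0.891 and 12.4 ± 2.39 CPM in test and control libraries. The thioesterases PPT1 and PPT2, the phosphatase ACP2 and the acetyltransferase HGSNAT had log2 fold changes from 0.05 to 0.46, none of which passed the test.

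Of the 7 lysosomal genes that the table also lists under glycosaminoglycan degradation, GLB1 and GUSB rose, 0 fell, and the median log2 fold change was 0.52. DNASE2 (ENSOCUG00000021573), the acid nuclease that digests DNA of engulfed cells, had 46.0, 56.0 and 48.0 CPM in test libraries and 34.1, 24.4 and 37.2 CPM in control libraries. The groups did not overlap, and DNASE2 rose 1.57-fold (edgeR adjusted p = 0.0398), with 0.18 on the log2 scale and no call after the span correction.

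Among the 6 proteases 1 rose (16.7%, a share that rests on 1 gene) and 0 fell, with a median log2 fold change of -0.02. CTSF (ENSOCUG00000013700), the cysteine cathepsin F, had 49.2, 66.8 and 65.6 CPM in test libraries and 23.5, 36.2 and 35.3 CPM in control libraries, and rose 1.91-fold (log2 fold change 0.94 ± 0.19, edgeR adjusted p = 0.0143), against 0.59 and no call after the span correction. The lowest library of each group was replicate 1. CTSS (ENSOCUG00000011085), cathepsin S of antigen-presenting cells, had 933, 963 and 896 CPM in test libraries and 938, 949.7 and 896 CPM in control libraries. The groups lay on top of each other, and the fold change was close to none (log2 scale 0.0046 ± 0.10, edgeR adjusted p = 0.984). CTSC, the dipeptidyl peptidase that activates granule proteases, averaged 846 ± 56.4 CPM in test libraries and 938 ± 39.3 CPM in control libraries, and TPP1, the tripeptidyl peptidase, 198 ± 3.41 and 204 ± 26.7 CPM in test and control libraries. CTSC, with every test library below every control library, did not pass the test (log2 fold change -0.15 ± 0.11, edgeR adjusted p = 0.390), nor did CTSZ, with every test library above (0.36 ± 0.13, edgeR adjusted p = 0.0964), nor CTSO (-0.58 ± 0.35, edgeR adjusted p = 0.305). Of the 14 pathway genes left out, which include the other cathepsins, 13 were tested, and 9 of these rose and 0 fell, with a median log2 fold change of 0.93. The counts given for the 68 leave these genes out.

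Of the 14 membrane proteins 3 rose and 0 fell, with a median log2 fold change of 0.28. LAMP1 (ENSOCUG00000022480), a heavily glycosylated main protein of the lysosomal membrane, had 293, 315 and 308 CPM in test libraries and 212, 196 and 217 CPM in control libraries, and rose 1.47-fold (log2 fold change 0.55 ± 0.10, edgeR adjusted p = 0.0097). LAMP2, its relative with a role in autophagy, averaged 143 ± 2.54 CPM in test libraries and 149 ± 38.6 CPM in control libraries, with the test values inside the control range (log2 fold change -0.06 ± 0.17, edgeR adjusted p = 0.852). The difference between these fold changes was not tested. NPC1 (ENSOCUG00000009850), which exports cholesterol through the lysosomal membrane, had 53.0, 54.4 and 52.5 CPM in test libraries and 29.4, 41.9 and 36.6 CPM in control libraries. The test libraries were close together and above a wider spread of controls, and NPC1 rose 1.48-fold (log2 fold change 0.57 ± 0.15, edgeR adjusted p = 0.0376). MCOLN1 (ENSOCUG00000011763), the lysosomal cation channel TRPML1, had 66.7, 69.1 and 60.3 CPM in test libraries and 54.2, 36.1 and 43.4 CPM in control libraries, and rose 1.47-fold (edgeR adjusted p = 0.0473), a call that also ended with the span correction.

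LAPTM4A (ENSOCUG00000026699), a small membrane protein and the most counted of the class, had 390.3, 368 and 387 CPM in test libraries and 282, 349 and 333 CPM in control libraries. Its groups did not overlap, yet it did not pass the test (log2 fold change 0.25 ± 0.12, edgeR adjusted p = 0.185). The same held for its relative LAPTM4B (0.34 ± 0.15, edgeR adjusted p = 0.156), the iron transporter SLC11A2 (0.31 ± 0.13, 0.149) and the cystine exporter CTNS (0.43 ± 0.21, 0.195). SLC17A5, the sialic acid exporter, was the one member of the class with every test library below every control library, at 9.76 ± 2.05 CPM in test libraries and 14.7 ± 3.42 CPM in control libraries (log2 fold change -0.59 ± 0.25, edgeR adjusted p = 0.144). SCARB2, a lysosomal membrane protein that also acts as a sorting receptor, averaged 149 ± 13.7 CPM in test libraries and 162 ± 30.0 CPM in control libraries, with overlapping groups. LITAF, MFSD8 and ENTPD4 had log2 fold changes of 0.17, 0.23 and 0.02 with overlapping groups. ABCB9, a peptide transporter, had 26, 37 and 30 counts in test libraries and 33, 0 and 0 counts in control libraries, so that its log2 fold change is poorly determined (1.78 ± 1.30, edgeR adjusted p = 0.403).

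In the tagging and receptor class 1 of 5 genes rose (20%, a share that rests on 1 gene) and 0 fell. NAGPA (ENSOCUG00000010929), the Golgi enzyme that uncovers the mannose 6-phosphate tag, had 20.3, 21.2 and 14.8 CPM in test libraries and 12.6, 7.02 and 8.83 CPM in control libraries. Test replicate 3 and control replicate 1 lay close together, and NAGPA rose 1.97-fold (log2 fold change 0.98 ± 0.26, edgeR adjusted p = 0.0340), again with no call after the span correction. GNPTAB, a subunit of the enzyme that attaches the precursor of the tag, averaged 46.6 ± 3.74 CPM in test libraries and 58.1 ± 9.26 CPM in control libraries (log2 fold change -0.32 ± 0.15, edgeR adjusted p = 0.190). M6PR (ENSOCUG00000017823), the smaller, cation-dependent receptor for the tag, had 167, 198 and 197 CPM in test libraries and 177, 174 and 166 CPM in control libraries, with overlapping groups. IGF2R, the larger receptor, averaged 180 ± 18.8 CPM in test libraries and 150 ± 29.4 CPM in control libraries (log2 fold change 0.27 ± 0.15, edgeR adjusted p = 0.288). SORT1, sortilin, which carries prosaposin among other cargo, averaged 67.3 ± 1.01 CPM in test libraries and 87.2 ± 18.7 CPM in control libraries (log2 fold change -0.37 ± 0.16, edgeR adjusted p = 0.149). Control replicate 1, at 66.2 CPM, lay with the test libraries for SORT1, and without it SORT1 was called lower (edgeR adjusted p = 0.0135).

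**Figure D4:**
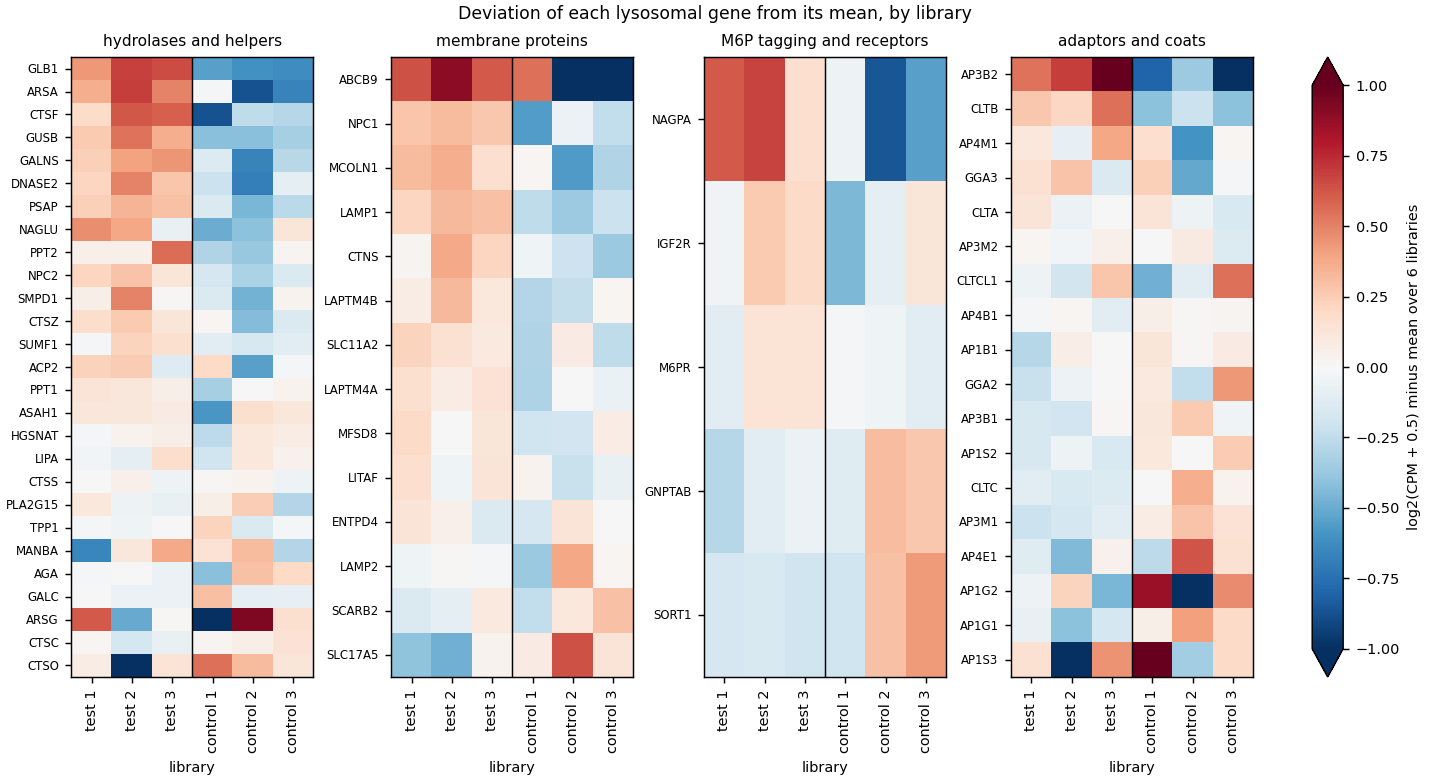
Deviation of log2(CPM + 0.5) from the mean over 6 libraries (colour) for 64 of the 68 genes (down the page, by role class) in test and then control libraries (across). The upper hydrolase rows, led by GLB1 and ARSA, are red in all 3 test libraries, and in the adaptor panel the AP3B2 and CLTB rows are redder in test libraries.

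The adaptors and coat had the lowest median log2 fold change of the 4 role classes, and differences between classes were not tested. Of 18 genes 1 rose (5.56%, near the 6.84% of all genes tested) and 0 fell, against 6.15% of all genes tested. Among them 12 had a negative and 6 a positive log2 fold change, and the median was -0.17. The 31 hydrolases and helpers had 9 rises (29.0%) and a median of 0.26. At an unadjusted p under 0.05, edgeR had 3 adaptor and coat genes lower (CLTC, AP3M1 and AP1G1), and the share of all genes at this threshold is not given here. CLTB (ENSOCUG00000014826), a clathrin light chain, had 24.6, 23.5 and 30.0 CPM in test libraries and 15.2, 17.4 and 15.2 CPM in control libraries, and rose 1.64-fold (log2 fold change 0.71 ± 0.18, edgeR adjusted p = 0.0271). The other light chain, CLTA, averaged 204 ± 13.9 CPM in test libraries and 198 ± 20.1 CPM in control libraries (log2 fold change 0.04 ± 0.12, edgeR adjusted p = 0.843). CLTC (ENSOCUG00000016413), the heavy chain, had 537, 521 and 527 CPM in test libraries and 580.1, 743 and 592 CPM in control libraries. Every test library was below every control library, but the difference did not pass the test (log2 fold change -0.27 ± 0.12, edgeR adjusted p = 0.170). CLTCL1, a second heavy chain gene with a similar sequence, had 335 counts in the test group and 396 in the control group, and reads may be shared with CLTC.

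AP-1 is the adaptor between the trans-Golgi network and endosomes. All 5 of its subunits that are among the lysosomal genes described here had negative log2 fold changes, and 0 were called. Their median span was 61.2 kb, and the trend of all genes with a span was at -0.10 at 61.4 kb. AP1G1, the gamma subunit, averaged 75.2 ± 8.98 CPM in test libraries and 102 ± 12.7 CPM in control libraries (log2 fold change -0.44 ± 0.14, edgeR adjusted p = 0.0611), with no overlap. The DESeq2 Wald test, a filter of mean CPM of at least 5, scaling by library size alone and the fit without control replicate 1 called AP1G1 lower. AP1S2 was also lower in every test library (-0.24 ± 0.12, edgeR adjusted p = 0.191), and AP1B1, AP1G2 and AP1S3 had overlapping groups. AP-3 carries membrane proteins such as LAMP1 from endosomes. Of its 4 subunits among the lysosomal genes, AP3M1 averaged 77.3 ± 2.76 CPM in test libraries and 98.0 ± 7.32 CPM in control libraries (-0.34 ± 0.11, edgeR adjusted p = 0.0753). AP3B2, the neuronal beta subunit, had 32, 41 and 81 counts in test libraries and 10, 16 and 1 counts in control libraries, and its log2 fold change of 2.69 ± 0.86 missed the threshold (edgeR adjusted p = 0.0654). The widely expressed beta subunit AP3B1 had a log2 fold change of -0.23 ± 0.12, and AP3M2 one of 0.03 ± 0.21. The 3 subunits of AP-4 among the lysosomal genes and the clathrin adaptors GGA2 and GGA3 had log2 fold changes from -0.39 to 0.26, all with overlapping groups.

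Genes that regulate lysosomes or feed them were read against the 6.84% of all tested genes that rose and the 6.15% that fell. Not found by symbol were 6 of 24 genes listed for MiT/TFE factors and mTORC1, among them RHEB and RPTOR. The same held for 9 of 36 autophagy genes, among them BECN1 and MAP1LC3B, and 10 of 25 fusion and positioning genes, among them RAB7A and VAMP7. The MiT/TFE list left out MITF, and its factors TFEB, TFE3 and TFEC were not called. For TFE3 every test library was above every control library (log2 fold change 0.51, edgeR adjusted p = 0.061). Among 18 tested genes of the MiT/TFE transcription factors and of mTORC1 signalling at the lysosome, 3 (16.7%) rose and 0 fell, with a median log2 fold change of -0.00032. They were NPRL3, a subunit of the GATOR1 complex that restrains mTORC1 (27.8 ± 4.74 CPM in test libraries and 15.7 ± 2.05 CPM in control libraries), LAMTOR1, the membrane anchor of the Ragulator complex (31.6 ± 2.44 and 19.8 ± 2.36 CPM in test and control libraries), and TSC2, an inhibitor of the pathway (113 ± 10.8 and 76.8 ± 8.2 CPM in test and control libraries), with edgeR adjusted p of 0.0220, 0.0261 and 0.0207. Of 27 tested autophagy genes 1 rose and 1 fell (3.70% each way, below the shares of all genes), with a median log2 fold change of -0.07. The kinase ULK1, which starts autophagy, averaged 47.8 ± 7.66 CPM in test libraries and 26.0 ± 2.24 CPM in control libraries (edgeR adjusted p = 0.0091), and the lipid kinase PIK3C3 46.5 ± 2.74 CPM in test libraries and 63.4 ± 2.55 CPM in control libraries (edgeR adjusted p = 0.0360). Of 15 tested genes of lysosome fusion and positioning 0 rose and 1 fell (6.67%, near the share of all genes), with a median log2 fold change of -0.02. It was VPS41, a subunit of the HOPS tethering complex, at 88.6 ± 2.38 CPM in test libraries and 124 ± 10.7 CPM in control libraries (edgeR adjusted p = 0.0232).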

How the data were processed

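Per the file headers, the deposited table gives raw counts per gene for 6 libraries, all of them whole. Libraries were made from ribosomal RNA-depleted total RNA with a stranded kit, per the labels. Tools named in the submitters' processing notes are HISAT2, Cuffdiff and cutadapt 1.9.3, with no role stated, and the build listed there is rn6, of rat, whereas gene identifiers are of rabbit. How reads were counted, with which strand setting and annotation, is not given in the sources used here, so reads of overlapping or antisense genes cannot be told apart. A further 6 columns of per-sample values, normalized by the authors, were not used.

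EdgeR 4.0.16 (R 4.3.3) with TMM normalization and filterByExpr (minimum count 10, minimum total 15) was fitted to all 6 libraries without a block. Log2 fold changes are test over control, and their SE is the absolute value divided by the square root of the F statistic. CPM are edgeR values on normalized library sizes. Counts are reads without molecular identifiers. Groups do not overlap where every test CPM is above, or below, every control CPM.

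The rule for named genes takes every member called at an adjusted p under 0.05, with values per library for the 12 largest rises and for the most counted member of each role class. Of the 68 members, 4 are counted in every total and are not reported here by name or plotted. Members and lists were chosen with earlier results of these data known. Of the other lists, the called genes are named. Alternatives were DESeq2 size factors, library size alone, quantile normalization with limma-voom (limma 3.58.1), limma-voom with TMM, the Wald test of DESeq2 1.42.0, a filter at a mean CPM of 5 or none, the replicate block and leaving out each library. Chosen after the data were seen were a restriction to genes with a RefSeq span and removal of each library's lowess trend (fraction 0.5) of log2 CPM (pseudocount 0.5) with log2 span. The tests were checked on simulated counts. Marker sums without CD163, CHI3L1, S100A8 or JCHAIN were also added after the data were seen. Plots were made with matplotlib 3.10.9.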

Additional observations from a re-analysis of the deposited data

How the results depend on the processing

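Calls over all genes, 1655 here, were 446 to 2163 when 1 library was left out. Among genes with a span alone they were 1198 without the gene span correction, 887 after it and 917 with this correction and the replicate block. Lysosomal genes called higher, 14 here, were 2 to 17 without 1 library and 9 with library size alone. Of the 65 with a span, 7 were called after the span correction (6 of them among the 14, with SLC11A2 added). With the correction and the block 9 were called (7 among the 14). The share of all genes tested that rose was 4.82% with library size alone and 7.33% among genes with a span. It was 5.16% after the span correction and 5.47% with the correction and the block. Lysosomal genes called lower, 0 here, were 0 to 3 without 1 library (AP1G1, GNPTAB and SORT1 without control replicate 1), 2 with library size alone, and 1 each with quantile normalization (CLTC), a mean CPM of at least 5 and the DESeq2 Wald test (AP1G1 in both). The median log2 fold change of the 68 genes, 0.17 here, was 0.12 to 0.23 without 1 library and 0.11 with library size alone. For the 65 with a span it was 0.15 without the span correction, 0.11 after it and 0.083 with the correction and the block. The span correction can be computed only for the 8883 tested genes with a span, and among these alone 15 lysosomal genes were called higher. CTSS, near 0 here, had a negative log2 fold change with DESeq2 size factors (-0.0011), library size alone (-0.044), quantile normalization (-0.11), the DESeq2 Wald test (-0.0011), and after the span correction without (-0.0291) and with (-0.0287) the block, and ranged from -0.019 to 0.034 without 1 library (negative without control replicate 3 or test replicate 2). ASAH1 ranged from -0.028 (without control replicate 1) to 0.30 without 1 library, and M6PR turned to -0.055 and -0.057 with the span correction without and with the block. Whether the replicate numbers pair the samples is not stated. Deviations of same-numbered libraries correlated at 0.08, -0.02 and 0.02 across genes, and those of different-numbered libraries at -0.094 to 0.069. With 3 libraries a group these values cannot show or exclude a pairing. With the replicate block 14 lysosomal genes were called higher and 0 lower, 13 of them among the 14, since the call of NPC2 ended (adjusted p = 0.0537) and 1 other gene was added. The cause of a change was not tested for any alternative.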

Other observations

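Control libraries varied more than test libraries in these genes. The SD was a median of 8.18% of the mean among test libraries and 15.6% among control libraries over the 68 genes, and 13.8% and 20.7% in test and control libraries over all genes tested. For hydrolases and helpers these medians were 7.34% in test and 15.6% in control libraries, and for adaptors and coats 12.2% in test and 13.3% in control libraries. Control replicate 1 had the lowest of the 6 values for ASAH1, LAMP2, IGF2R and SCARB2, at 148, 111, 119 and 130 CPM. These genes were singled out after their values were seen.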
